A study of Oryctolagus cuniculus with 9 samples.

Results

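The 10 genes described are PPARGC1A, ESRRA, NRF1, TFAM, MFN1, MFN2, OPA1, DNM1L, FIS1 and PINK1, which control how many mitochondria a cell builds, how these join and divide, and how damaged ones are marked for removal. They were chosen by name, and all 10 were found among the 29076 genes of the expression table. RNA of the rabbit diaphragm, the main muscle of breathing, was measured in 9 bulk libraries of poly(A) RNA, 3 in each of 3 groups. Animals of the CON group were anaesthetized and breathed by themselves. The MV group was ventilated in volume control mode for 48 h without positive end-expiratory pressure (PEEP, the pressure that remains in the airway when a breath ends), which was set to 0 cmH2O. The remaining group, called MV_PEEP here, was ventilated with a PEEP that the labels give as 8 with no unit, and neither the labels nor the study's methods state how long. The study used New Zealand white rabbits, all under sedation, and its methods describe only the CON and MV groups. The labels do not say that each library came from a separate animal, so the p-values measure only the spread between these libraries.

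Mitochondria are renewed by linked processes. In biogenesis, the coactivator encoded by PPARGC1A (PGC-1α) works with transcription factors such as those of ESRRA and NRF1. Together they switch on nuclear genes of the respiratory chain and TFAM, whose protein packages mitochondrial DNA and acts in its transcription. In dynamics, the GTPases of MFN1 and MFN2 fuse outer membranes, that of OPA1 fuses inner membranes, and that of DNM1L (DRP1) constricts the organelle at sites where outer membrane proteins such as that of FIS1 sit. The kinase encoded by PINK1 gathers on mitochondria that have lost their membrane potential and starts their removal by mitophagy. The diaphragm is rich in mitochondria because it contracts without rest, and a ventilator takes over part of that work.

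Total counts per library ranged from 21646702 to 43697018, and the 10 genes had between 58 counts (the lowest value of ESRRA) and 73142 counts (the highest value of PINK1) in a library. Defining genes of skeletal muscle fibres were abundant in all 9 libraries, with ACTA1, the actin of skeletal muscle, at 10740 FPKM or more (FPKM, a fragment count corrected for how long the transcript is and how deep the library). MV_PEEP replicate 3 stood apart from the other 8. Its median over the markers tested, relative to the mean of the 9 libraries on the log2 scale, was 3.01 for 4 adipocyte genes, 2.66 for 9 fibroblast genes and 2.61 for 5 macrophage genes, and -1.39 for 8 genes of skeletal muscle fibres. The summed FPKM of the adipocyte genes was 7810 in it and 207 to 717 in the others. The 4 neutrophil genes tested summed to 2.96 to 19.1 FPKM in the CON group, to 30.3 to 1026 in the MV group, with the highest sum in MV replicate 1, and to 150 to 283 in the MV_PEEP group, while MPO and MMP8 were listed at the table's floor in all 9 libraries. Medians of 7 endothelial genes ran from -1.22 (MV replicate 3) to 0.86, and those of 7 smooth muscle and pericyte genes from -1.01 (MV replicate 3) to 1.14 (CON replicate 3). Of the erythroid list only ALAS2 was tested, at 1.32 to 11.5 FPKM. In bulk RNA, fewer cells of a type and less RNA per cell cannot be told apart.

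The genes were expressed at very different levels. On the FPKM scale, which accounts for transcript length, PINK1 was the most abundant in the CON group at 667 ± 240 FPKM (SD, n = 3) and held rank 186 of the 12981 genes tested. FIS1 came next at 159 ± 41.7 FPKM, followed by MFN2 at 45.5 ± 13.0, MFN1 at 26.9 ± 3.25 and DNM1L at 13.1 ± 6.78. The ranges of neighbours in this order did not overlap down to MFN1 and DNM1L. The remaining 5 genes were low, with ESRRA at 8.90 ± 4.76, PPARGC1A at 6.43 ± 3.70, TFAM at 3.39 ± 1.11, NRF1 at 2.62 ± 0.843 and OPA1 at 2.39 ± 1.10 FPKM, and from DNM1L downward each neighbouring pair overlapped. The 5 most abundant genes kept this order by mean in all 3 groups, although MFN2 and MFN1 overlapped in the MV group, and PINK1 and FIS1, as well as MFN1 and DNM1L, overlapped in the MV_PEEP group.

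**Figure D1:**
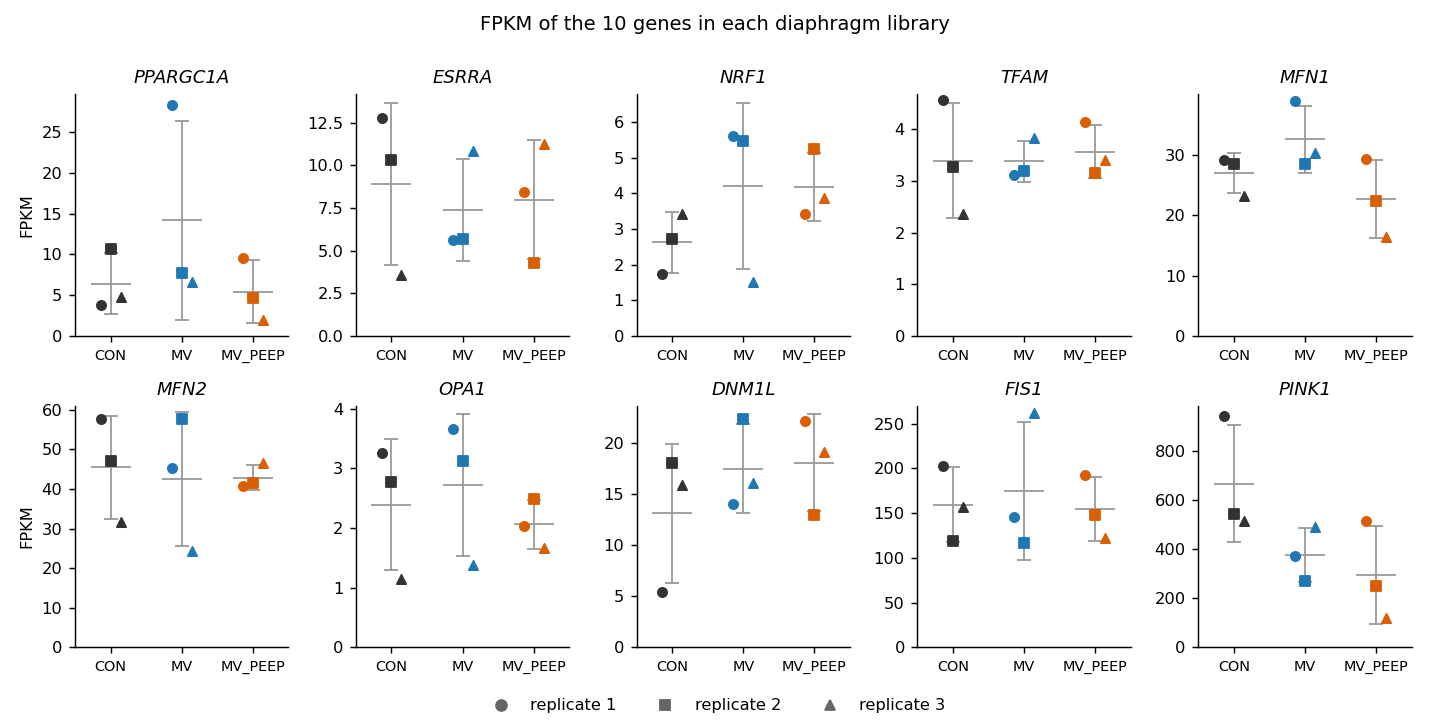
FPKM (vertical axis, each panel on its own scale from 0) of the 10 genes in the 3 libraries of the CON, MV and MV_PEEP groups, with the mean and SD of each group in grey and replicate numbers as symbols. PINK1 is between 516 and 944 FPKM in the CON group and between 121 and 514 in the 6 ventilated libraries, whereas the groups overlap for each of the other 9 genes.

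Among the biogenesis genes, PPARGC1A (chromosome 2, 14395674 to 14501774 on the minus strand, OryCun2.0) measured 3.83, 10.7 and 4.78 FPKM in the CON libraries, 28.3, 7.68 and 6.61 in the MV libraries and 9.63, 4.70 and 2.0 in the MV_PEEP libraries. MV replicate 1 was the highest and MV_PEEP replicate 3 the lowest of the 9, and the groups overlapped. The log2 fold change of MV against CON was 1.03 (SE 0.71), with a 95% interval from -0.54 to 2.61. Without MV replicate 1, the library with the highest neutrophil sum, it was 0.21. MV_PEEP against MV gave -1.39 (SE 0.72, interval -2.98 to 0.20, adjusted p 0.98), and -0.57 without MV replicate 1. Across the 9 libraries PPARGC1A spanned a 14.2-fold range, the widest of the 10 genes.

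ESRRA, an orphan nuclear receptor and partner of PGC-1α, lies on an unplaced scaffold in a model whose counts and FPKM imply a length of 737 bases, and no library had more than 346 counts for it. Its FPKM was 12.8, 10.3 and 3.59 in the CON group, 5.64, 5.67 and 10.8 in the MV group and 8.45, 4.28 and 11.2 in the MV_PEEP group. High and low libraries occurred in each group. The fold change of both ventilated groups against CON was -0.43 on the log2 scale (SE 0.51), and it was 0.10 without CON replicate 1.

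NRF1 (chromosome 7, 14838822 to 14942966, minus strand) encodes an activator of nuclear genes for respiratory proteins. Like OPA1, its span overlaps another gene on the opposite strand, and whether the counting used strand is not given in the sources used here. It measured 1.74, 2.72 and 3.42 FPKM in the CON libraries, 5.61, 5.49 and 1.52 in the MV libraries and 3.41, 5.24 and 3.88 in the MV_PEEP libraries. Of the 6 ventilated libraries, 4 were above the highest CON library, and MV replicate 3 was below the lowest. The log2 fold change was 0.51 (SE 0.45) for MV and 0.36 (SE 0.45) for MV_PEEP against CON, with an adjusted p of 0.88 and 0.98. Leaving out single libraries gave 0.29 to 0.86 and 0.12 to 0.65, with the lowest value of MV_PEEP without its replicate 2 and the highest without CON replicate 3. TFAM (chromosome 18, 27754289 to 27765318, minus strand) was the steadiest of the 10 genes, with 4.56, 3.27 and 2.35 FPKM in the CON group, 3.11, 3.20 and 3.84 in the MV group and 4.13, 3.15 and 3.41 in the MV_PEEP group. All ventilated values of TFAM lay within the range of the CON group. Its log2 fold change for both ventilated groups against CON was -0.18 (SE 0.38, interval -1.02 to 0.66), which leaves room for a fold between 0.494 and 1.58.

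Of the fusion genes, MFN1 (chromosome 14, 74793982 to 74841793, plus strand) had 29.2, 28.5 and 23.2 FPKM in the CON libraries, 38.8, 28.4 and 30.3 in the MV libraries and 29.2, 22.3 and 16.4 in the MV_PEEP libraries. Its mean was highest in the MV group and lowest in the MV_PEEP group, with overlap between the groups. The log2 fold change of MV_PEEP against MV was -0.68 (SE 0.39, adjusted p 0.98), and -0.36 without MV_PEEP replicate 3. MFN2, on an unplaced scaffold, measured 57.6, 47.0 and 31.8 FPKM in the CON group, 45.3, 57.8 and 24.2 in the MV group and 40.7, 41.4 and 46.5 in the MV_PEEP group. The 3 MV_PEEP libraries were close together (42.9 ± 3.18 FPKM, SD, n = 3) and lay inside the CON range. OPA1 (chromosome 14, 89458143 to 89555760, plus strand) had the lowest mean of the 10 genes in every group, at 3.25, 2.77 and 1.15 FPKM in CON, 3.66, 3.13 and 1.37 in MV and 2.04, 2.49 and 1.67 in MV_PEEP. The CON and MV groups each held 1 library far below their other 2, and the groups overlapped. Its log2 fold change was 0.01 (SE 0.47) for MV against CON and -0.52 (SE 0.47) for MV_PEEP against CON. The latter was -0.06 without CON replicate 1 and -0.83 without CON replicate 3.

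Of the fission genes, DNM1L (chromosome 8, 8586616 to 8639578, minus strand) measured 5.36, 18.0 and 15.9 FPKM in the CON libraries, 13.98, 22.4 and 16.04 in the MV libraries and 22.2, 12.9 and 19.1 in the MV_PEEP libraries. CON replicate 1 was far below the other 8, which lay between 12.9 and 22.4 FPKM. The log2 fold change of both ventilated groups against CON was 0.30 (SE 0.39), and it was -0.04 without CON replicate 1. FIS1, on an unplaced scaffold with an implied length of 816 bases, had 202, 119 and 157 FPKM in the CON libraries, 146, 116 and 262 in the MV libraries and 193, 148 and 122 in the MV_PEEP libraries. The MV group held 1 library well above its other 2, and the groups overlapped. The fold change of both ventilated groups against CON was -0.15 on the log2 scale (SE 0.44, interval -1.14 to 0.84).

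Gene length moved with some of these libraries. The median log2 CPM (counts scaled to library size, relative to the mean of the 9 libraries) of the 3246 longest genes minus that of the 3246 shortest was -0.80 in MV replicate 3, -0.50 in CON replicate 1 and -0.24 in MV_PEEP replicate 1, and between -0.07 and 0.43 in the other 6. These 3 libraries were also the 3 with the highest FPKM of FIS1, which has a short transcript. NRF1, with an implied length of 4070 bases, was lowest in MV replicate 3 and CON replicate 1 (-0.81 and -0.61 in log2 CPM relative to the mean of the libraries), in which ESRRA, with its short model, was highest (0.85 and 1.11). Other genes with long transcripts were mixed in these libraries. OPA1 and MFN2 (implied lengths of 7788 and 4542 bases) were highest in CON replicate 1 (0.87 and 0.78). Both were below the mean in MV replicate 3 (-0.38 and -0.48). PPARGC1A (6784 bases) was at -0.46 in CON replicate 1, 0.31 in MV replicate 3 and 0.61 in MV_PEEP replicate 1. DNM1L (3891 bases) was at -1.16, 0.40 and 0.62 in the same order. PINK1 (2458 bases) was highest in CON replicate 1 (1.62) and next in MV replicate 3 (0.66), with 0.48 in MV_PEEP replicate 1. It was lowest in MV_PEEP replicates 3 and 2 (-2.23 and -0.75), where long minus short genes gave 0.43 and 0.38. In CON replicate 2 PINK1 was at 0.39 with a length value of 0.34. The part of transcript length in these values was not tested.

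PINK1 (chromosome 13, 132444528 to 132458997, minus strand) was the only gene of the 10 whose ventilated libraries stood clear of the CON libraries. It measured 944, 543 and 516 FPKM in the CON libraries, 371, 269 and 491 in the MV libraries and 514, 248 and 121 in the MV_PEEP libraries. All 6 ventilated libraries were below all 3 CON libraries on the FPKM scale, although the nearest values, 514 in MV_PEEP replicate 1 and 516 in CON replicate 3, almost met. The mean of the ventilated libraries was 336 ± 152 FPKM (SD, n = 6), 0.503 times the CON mean, with an exact 2-sided permutation p of 0.0238, the smallest that 6 against 3 libraries can give. Of all 12981 genes tested, 1.25% were lower in the 6 ventilated libraries without overlap in FPKM. The CON mean rested in part on CON replicate 1. Without it the ratio was 0.634, with an exact permutation p of 0.0714, the smallest that 6 against 2 libraries allow. The lack of overlap did not hold on the log2 CPM scale after TMM scaling (trimmed mean of M-values, which corrects for the make-up of a library), where the exact permutation p was 0.119.

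In the model fitted to all genes, PINK1 had a log2 fold change of -0.92 (SE 0.67) for MV against CON, -1.42 (SE 0.68) for MV_PEEP against CON and -0.50 (SE 0.67) for MV_PEEP against MV. For both ventilated groups against CON it was -1.17 (SE 0.56, 95% interval -2.42 to 0.08, adjusted p 0.71). It remained below 0 in each comparison under every setting run, between -1.60 and -0.70 for both ventilated groups against CON when 1 library at a time was left out. The unadjusted p for both ventilated groups was 0.063 and fell below 0.05 with library totals in place of TMM, with DESeq2, with limma on log2 FPKM, and without MV replicate 3 or MV_PEEP replicate 1. None of these settings brought an adjusted p of PINK1 below 0.457. Against MV, the MV_PEEP difference of PINK1 ranged from -1.37 without MV_PEEP replicate 1 to -0.07 without MV replicate 3 and -0.03 without MV_PEEP replicate 3, the library with high adipocyte, fibroblast and macrophage markers and low markers of muscle fibres.

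The level of PINK1 was also set against other mitochondrial and muscle genes of the same library, a measure that does not depend on the scaling between libraries and that was chosen after the values of PINK1 were known. The log2 FPKM of PINK1 minus the median of 18 genes of mitochondrial content (such as citrate synthase, porins and import subunits) was 2.73, 2.20 and 2.28 in the CON libraries, 1.67, 1.09 and 1.998 in the MV libraries and 1.94, 1.51 and 0.01 in the MV_PEEP libraries. The ventilated libraries were lower by 1.03 on average, without overlap (exact 2-sided permutation p 0.0238). Relative to 32 nuclear genes of the respiratory chain, PINK1 was at 0.17, 0.04 and -0.21 in the CON group, -0.82, -1.17 and -0.46 in the MV group and -0.43, -0.81 and -1.28 in the MV_PEEP group. That difference, -0.83, had the same exact permutation p of 0.0238, and it lay between -0.93 and -0.74 when each library was left out in turn. Relative to 8 genes of skeletal muscle fibres the difference was -1.06 (exact permutation p 0.0476), and MV replicate 1, at -2.02, fell within the CON range. Adjusted over the 17 such differences computed, these p-values were 0.202, 0.202 and 0.270. The other 14 differences, among them each of the other 9 genes relative to mitochondrial content, MFN2 relative to DNM1L and PPARGC1A relative to TFAM, had exact permutation p-values between 0.214 and 0.976. A list median does not speak for each gene of its list. For both ventilated groups against CON, ACTA1 (-1.25, SE 0.50) and CKM (-1.10, SE 0.57) had log2 fold changes near that of PINK1 (-1.17). The 8 muscle fibre genes had a median of -0.71 and a highest value of 0.64.

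**Figure D2:**
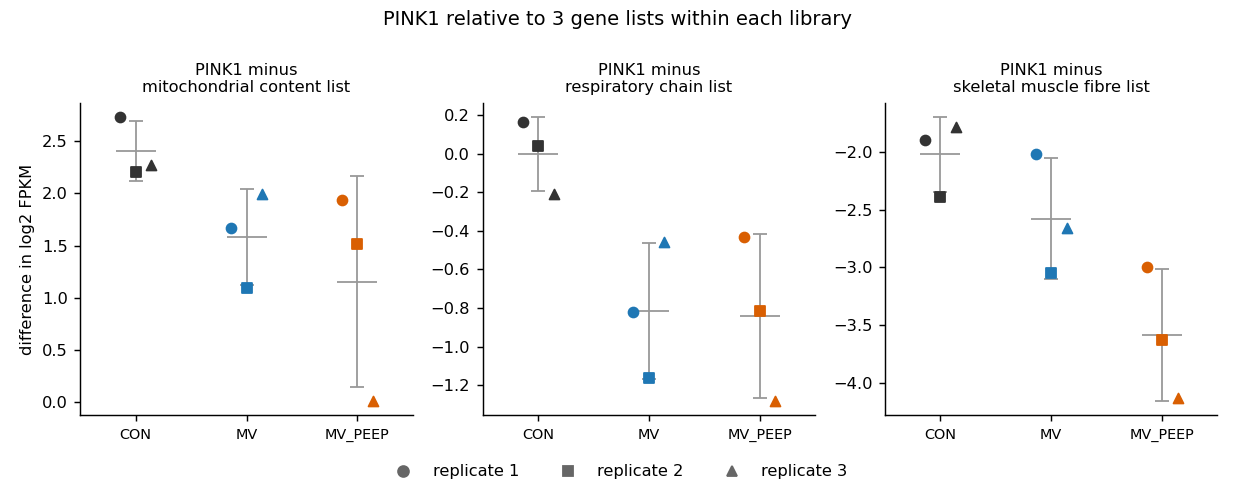
Log2 FPKM of PINK1 minus the median of 3 gene lists (18 mitochondrial content genes, 32 nuclear respiratory chain genes, 8 skeletal muscle fibre genes) in each library, with the mean and SD of each group in grey and replicate numbers as symbols; the vertical axes differ and do not start at 0. The 6 ventilated libraries lie below the 3 CON libraries for the content and respiratory chain lists, and MV replicate 1 at -2.02 lies among the CON libraries for the muscle fibre list.

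None of the 10 genes passed an adjusted p of 0.05 in any of the 4 comparisons by edgeR's quasi-likelihood test. Nor did any other gene, so that 0% of the 12981 genes tested were called in each comparison, against 154, 98, 15 and 203 genes with DESeq2 and 2, 2, 1 and 5 with limma on log2(FPKM + 1) for MV against CON, MV_PEEP against CON, MV_PEEP against MV and both ventilated groups against CON. None of the 10 had an unadjusted p under 0.05 either. For MV against CON the share of all genes at that level was 3.77% higher and 3.19% lower. It was 3.23% and 3.02% for MV_PEEP against CON, 2.26% and 1.26% for MV_PEEP against MV, and 3.6% and 3.84% for both ventilated groups against CON. Of the 10 genes, only PINK1 did not overlap in FPKM between single ventilated groups and CON; in MV 4.91% and in MV_PEEP 2.58% of all genes were lower than CON in the same way. With 3 libraries against 3, the smallest exact permutation p is 0.1.

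By sign, 6 of the 10 genes were above 0 for MV against CON with a median log2 fold change of 0.04, against a median of 0.02 over all genes. For MV_PEEP against CON 2 of 10 were above 0 (median -0.40, all genes 0.06), and for MV_PEEP against MV none was (median -0.33, all genes 0.00), with PPARGC1A at -1.39 and NRF1 at -0.15 as the ends of the range. The last 2 comparisons share the 3 MV_PEEP libraries. Without MV_PEEP replicate 3 these medians were -0.13 and -0.09, with 3 and 2 genes above 0. Scaling by library totals alone moved the median of all genes up by 0.36 and 0.25 and that of the 10 genes with it, to -0.11 and -0.09. Relative to the median of all genes, 8 of the 10 were lower for MV_PEEP against CON and 10 of 10 for MV_PEEP against MV under both scalings. Related lists were mostly lower for MV_PEEP against MV too. After TMM scaling these were 16 of 18 genes of mitochondrial content and 31 of 32 of the respiratory chain. So were 20 of 27 other biogenesis genes, 18 of 25 of fusion and fission and 14 of 19 of mitophagy. For both ventilated groups against CON, 3 of the 10 genes were above 0 (median -0.18), against 6 of 10 (median 0.12) without CON replicate 1.

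**Figure D3:**
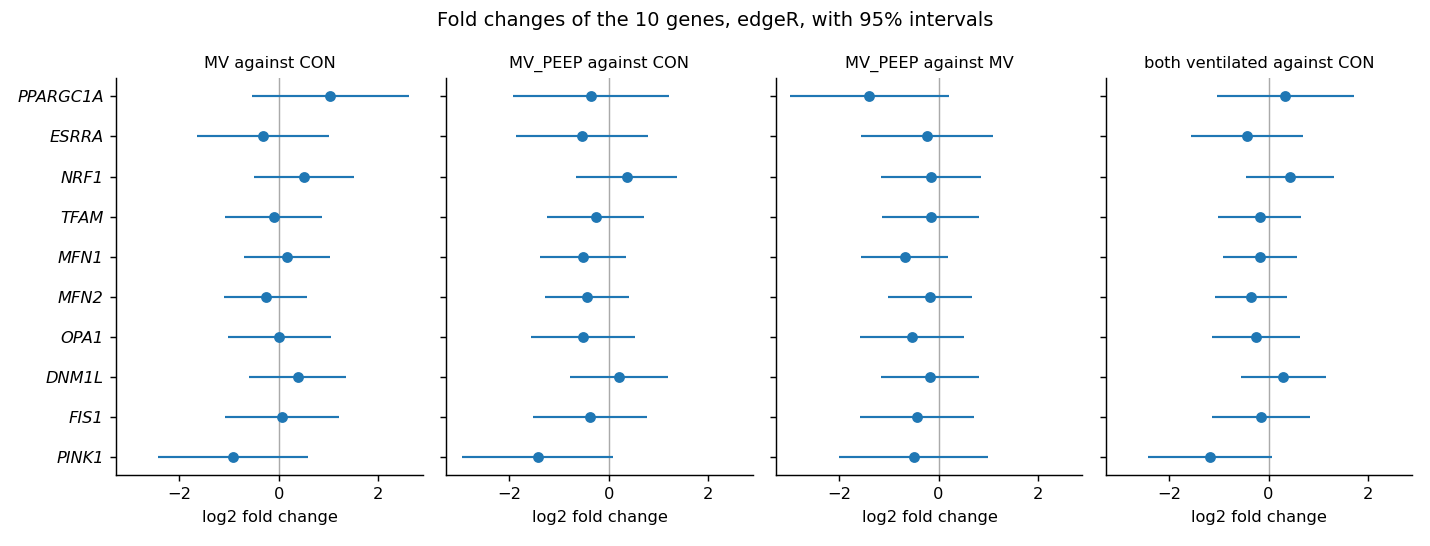
Log2 fold change (horizontal axis) of the 10 genes in 4 comparisons, from edgeR's quasi-likelihood fit to 12981 genes; points are estimates and lines 95% intervals. Every interval includes 0. In the 3 comparisons against CON the lowest estimates are those of PINK1, from -1.42 to -0.92, and for MV_PEEP against MV the lowest is that of PPARGC1A (-1.39).

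Over the 9 libraries the 10 genes did not move as 1 block. Of the 45 pairs, 33 had a positive Pearson r in log2 CPM (median 0.27), 10 had an exact permutation p under 0.05 and 0 passed after adjustment over the 45. The most negative pair was ESRRA and NRF1, both partners of PGC-1α, with r = -0.87 (exact permutation p 0.0039, adjusted 0.0654) and Spearman's rho = -0.82 (exact permutation p 0.0108, adjusted 0.162). The pair kept r = -0.84 without the 2 libraries farthest from the median of ESRRA, and r = -0.88 after the group means were removed. Its members have short and long transcripts, and MV replicate 3 and CON replicate 1, the libraries with the lowest values of long against short genes, held the highest values of ESRRA and the lowest of NRF1. The part of length in this correlation was not tested. MFN2 and OPA1, which act in outer and inner membrane fusion, had r = 0.82 (exact permutation p 0.0058, adjusted 0.0654) and rho = 0.82, with r = 0.79 without the 2 outermost libraries. TFAM and FIS1 had r = 0.85 (exact permutation p 0.0036) with rho = 0.68, and r fell to 0.68 without the 2 outermost libraries. MFN1 and PINK1 had r = 0.86 (exact permutation p 0.0056) with rho = 0.77, against r = 0.61 without the 2 outermost libraries. All these values share the scaling of the same 9 libraries. On log2(FPKM + 1) the 4 correlations were -0.69, 0.78, 0.53 and 0.63.

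Genes with the profile most like that of PPARGC1A over the 9 libraries were ABCC9 (r = 0.92), DST (0.92), CAMK2D (0.91), OSGEPL1 (0.90) and N4BP2L2 (0.90), with rho between 0.47 and 0.73. ABCC9 encodes a subunit of potassium channels that sense ATP, and CAMK2D a kinase activated by calcium and calmodulin. In all 5, MV replicate 1 was the highest library, as it was for PPARGC1A. The most opposite profiles were those of SLC16A13 (r = -0.94), TGOLN2 (-0.92), PLEKHB1 (-0.91), CCBE1 (-0.91) and NMRK1 (-0.91), and each of these was highest in MV_PEEP replicate 3. The same ranking for PINK1, added after its values were seen, gave FITM1 (r = 0.99), a protein of lipid droplet formation, CKM (0.98), the creatine kinase of muscle, MPP7 (0.98), MDH2 (0.98), the mitochondrial malate dehydrogenase, and MPC1 (0.97), a subunit of the mitochondrial pyruvate carrier. FITM1 had 207, 150 and 164 FPKM in the CON group, 111, 89.6 and 140 in the MV group and 146, 92.3 and 52.9 in the MV_PEEP group, and so followed the order of PINK1 closely. Most opposite to PINK1 were SGPL1 (r = -0.97), C2H2orf68 (-0.96), CD14 (-0.94), HEATR1 (-0.94) and DVL3 (-0.93), and each was highest in MV_PEEP replicate 3. These correlations were picked as extremes among 12981 genes and are given as descriptions.

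Genes of the same pathways were followed in 5 further lists. Of 27 other biogenesis regulators and genes of mitochondrial DNA upkeep tested, 16 were above 0 for both ventilated groups against CON (median log2 fold change 0.11, all genes 0.04), 1 had an unadjusted p under 0.05 and was higher (all genes 3.6%), and none was lower. That gene was PRKAA1, which encodes a catalytic subunit of the energy sensor AMPK. It measured 1.69, 3.85 and 1.70 FPKM in the CON libraries, 4.25, 6.15 and 5.13 in the MV libraries and 5.62, 5.25 and 4.53 in the MV_PEEP libraries. All 6 ventilated libraries were above all 3 CON libraries, as were those of 5.99% of all genes tested, and the log2 fold change was 0.97 (SE 0.34, adjusted p 0.52). Its unadjusted p was not under 0.05 without CON replicate 1 or CON replicate 3. Next by p were PPARA, a receptor that drives fatty acid oxidation, at -0.82 (SE 0.39), and PERM1, a muscle regulator acting with PGC-1α, at -0.66 (SE 0.36). ESRRG and POLRMT were below the minimum level and were not tested.

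Of 25 other genes of fusion and fission tested, 13 were above 0 (median 0.01) and none had an unadjusted p under 0.05 for both ventilated groups against CON. The 3 with the smallest p were TRAK1, an adaptor of mitochondrial transport, at -0.39 (SE 0.26), MTFP1, a fission protein of the inner membrane, at -0.68 (SE 0.46), and CHCHD3, a subunit of the complex that shapes cristae, at -0.46 (SE 0.35). Relative to the median of all genes, which library totals alone moved up by 0.24, 15 of the 25 were lower after TMM scaling and 16 without it.

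Of 19 other mitophagy genes tested, 16 were above 0 (median 0.25), and at an unadjusted p under 0.05 there was 1 higher gene and 1 lower gene, against 3.6% and 3.84% of all genes. MAP1LC3B, whose protein coats the growing autophagosome, measured 65.1, 54.5 and 52.6 FPKM in the CON libraries, 104, 113 and 199 in the MV libraries and 149, 92.6 and 106 in the MV_PEEP libraries. Each ventilated library was above each CON library, as was so for 5.99% of all genes tested. The log2 fold change was 0.97 (SE 0.42, adjusted p 0.65). Its unadjusted p was not under 0.05 without CON replicate 2 or 3, MV replicate 3, or MV_PEEP replicate 1 or 2. TOMM7, a subunit of the outer membrane import complex that holds PINK1 on damaged mitochondria, had 465, 239 and 381 FPKM in CON, 280, 164 and 274 in MV and 271, 179 and 146 in MV_PEEP. Its log2 fold change was -0.95 (SE 0.42, adjusted p 0.66), and the groups overlapped. It was not under an unadjusted p of 0.05 without CON replicate 1 or 3, MV replicate 1 or 2, or MV_PEEP replicate 2 or 3. VCP, an ATPase that extracts ubiquitin-tagged proteins, was at 82.1 ± 15.7 FPKM in CON, 151 ± 47.4 in MV and 163 ± 41.1 in MV_PEEP (SD, n = 3), with a log2 fold change of 0.78 (SE 0.42).

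Of the 32 nuclear genes of the respiratory chain, 31 were below 0 for both ventilated groups against CON (median -0.49) and 0 had an unadjusted p under 0.05. Of the 8 genes of skeletal muscle fibres, 7 were below 0 in the same comparison (median -0.71). ACTA1, with the smallest p of these 8, had a mean of 33340 FPKM in CON, 17070 in MV and 14610 in MV_PEEP. DES, of the same list, had 2101, 2206 and 933.5 FPKM in CON. It had 1265, 2905 and 4383 in MV and 4667, 2529 and 1929 in MV_PEEP. The muscle fibre list named 12 genes, of which 8 were found in the data. For MV_PEEP against CON, where 3.02% of all genes were lower at an unadjusted p under 0.05, 4 of the 32 were. That count was 0 without CON replicate 1, CON replicate 3, MV_PEEP replicate 2 or MV_PEEP replicate 3. It was 19 without MV_PEEP replicate 1, 6 without CON replicate 2, 2 without MV replicate 1 or 2 and 1 without MV replicate 3. With library totals in place of TMM it was 2. For both ventilated groups against CON the count was 0. It rose to 9 without MV_PEEP replicate 1, 5 without CON replicate 2 and 1 without MV replicate 1. The share of all genes under these leave-outs is not given here. The 3 with the smallest p were COX7A1, a muscle subunit of complex IV, at -1.09 (SE 0.51), NDUFB3, a subunit of complex I, at -0.77 (SE 0.36), and ATP5F1A, the alpha subunit of ATP synthase, at -0.81 (SE 0.41), with adjusted p-values from 0.69 to 0.71. Without CON replicate 1, in which the list median was highest at 0.96 above the mean of the libraries, the median was -0.12 with 6 genes above 0. Without MV_PEEP replicate 3, where it was lowest at -1.47, the median was -0.30 and 3 genes were above 0. Of 18 genes of mitochondrial content, 14 were below 0 (median -0.26) and none had an unadjusted p under 0.05. OGDH of the citric acid cycle was at -0.65 (SE 0.36), and SLC25A4, the carrier of ADP and ATP, at -0.77 (SE 0.46). Without CON replicate 1 that median was 0.06. The part of the 2 outlying libraries, of their cell type markers and of the muscle fibre genes in these list medians was not tested.

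**Figure D4:**
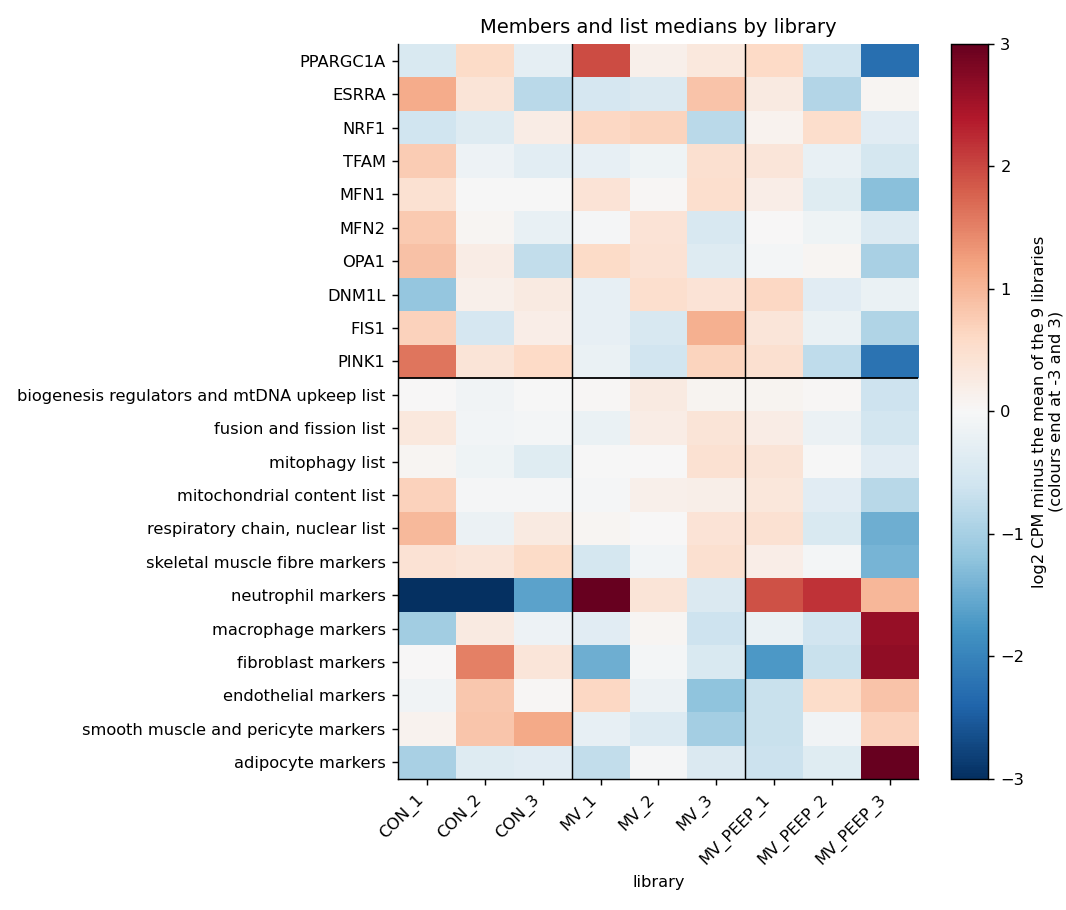
Log2 CPM relative to the mean of the 9 libraries (colour, ending at -3 and 3) of the 10 genes (upper rows) and medians of 12 gene lists (lower rows) in each library (columns, with lines between groups). PPARGC1A (-2.27) and PINK1 (-2.23) are lowest in MV_PEEP replicate 3, the library in which adipocyte, fibroblast and macrophage markers are highest, and PPARGC1A is highest (1.96) in MV replicate 1.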

How the data were processed

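The 9 libraries were sequenced as stranded paired-end poly(A) RNA. Per the labels, the authors used cutadapt 1.9, HISAT2 2.0.4, the OryCun2.0 build and StringTie 1.3.4d; the program behind the counts and the annotation release are not given in the sources used here. As deposited, the counts are whole numbers per gene with no scaling described, and 54.3% of those from 1 to 12 are 4, 8 or 12. The deposited FPKM values are scaled by the authors to transcript length and library size, with 0.0001 in place of 0. Total counts were 21646702 to 31791693 in CON, 24670232 to 43697018 in MV and 33024311 to 41077310 in MV_PEEP, and depth sets the precision of the low genes. Of the table's gene IDs, 20171 matched the RefSeq gene table, whose assembly is another build, and 764 names were taken from it.

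Genes whose FPKM averaged 0.5 or more over the libraries (12981) were tested with edgeR 4.0.16 in R 4.3.3 (TMM, 1 mean per group, legacy quasi-likelihood fit, 6 residual and 4.08 prior degrees of freedom), with Benjamini-Hochberg adjustment over all of them at 0.05. Log2 CPM used a prior count of 2. Exact 2-sided permutation tests ran in scipy 1.17.1. Intervals are 95%. Alternatives were other scalings, filters and pseudocounts, limma 3.58.1, DESeq2 1.42.0, counts divided by 4, a replicate block and single libraries left out; differences within a library, list counts without single libraries or TMM, values relative to the median of all genes, and edgeR's current form were added after the data were seen. Fits were tested on simulated data.

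Named are all 10 genes, the 3 genes with the smallest p of each pathway list for both ventilated groups against CON, and the 5 genes most like and most unlike PPARGC1A, without unnamed loci; 1 gene that meets this rule is not reported here. The 5 genes most like and most unlike PINK1 were added after its values were seen. The 10 genes and the lists were chosen with earlier results of these data known. Where NRF1 and OPA1 overlap another gene on the opposite strand, reads could be shared, since the strand setting of the counting is not given. Mitochondrially encoded genes were not analysed here.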

Additional observations from a re-analysis of the deposited data

How the results depend on the processing

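In none of the 790 values recomputed for the 10 genes did an adjusted p fall below 0.05 (lowest 0.457), and PINK1 did not change sign. In 63 the sign turned. MV_PEEP against MV turned positive with library totals for DNM1L (0.05), ESRRA (0.12), MFN2 (0.016) and TFAM (0.077), with limma on log2(FPKM + 1) for DNM1L (0.04), ESRRA (0.074), MFN2 (0.098), NRF1 (0.10) and TFAM (0.058), and with a pseudocount of 0.1 for the same genes (0.042, 0.077, 0.10, 0.18 and 0.072). TFAM turned positive against CON with library totals (MV 0.002, MV_PEEP 0.079, both groups 0.04), limma with 1 (0.023, 0.081, 0.052) and with 0.1 (0.038, 0.11, 0.074). Both ventilated groups against CON turned positive for FIS1 (0.048, 0.019 and 0.019 under these 3 settings), for MFN1 with library totals (0.017) and for OPA1 with limma (0.02 and 0.045 with pseudocounts of 1 and 0.1). These settings moved the median of all genes up as well, by 0.107 to 0.359 with library totals, 0.042 to 0.223 with limma at 1 and 0.052 to 0.29 at 0.1, and the 9, 10 and 10 values that turned all lay below the median of all genes under the same setting. With single libraries left out, both ventilated groups against CON ranged from -0.037 to 0.53 (DNM1L), -0.80 to 0.10 (ESRRA), -0.46 to 0.16 (FIS1), -0.58 to 0.20 (OPA1), -0.10 to 0.73 (PPARGC1A) and -0.39 to 0.23 (TFAM). MV against CON ranged from -0.90 to 0.19 (ESRRA), -0.56 to 0.36 (FIS1), -0.51 to 0.071 (MFN2), -0.32 to 0.45 (OPA1) and -0.37 to 0.29 (TFAM). MV_PEEP against CON ranged from -0.15 to 0.46 (DNM1L), -0.90 to 0.00 (ESRRA), -1.24 to 0.12 (PPARGC1A) and -0.54 to 0.17 (TFAM). MV_PEEP against MV ranged from -0.53 to 0.006 (DNM1L), -0.47 to 0.37 (ESRRA), -0.79 to 0.20 (FIS1), -0.36 to 0.076 (MFN2), -0.49 to 0.076 (NRF1) and -0.44 to 0.11 (TFAM). The cause of the turns with single libraries left out was not tested.

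Counts of genes at an adjusted p of 0.05 rose from 0 with DESeq2 to 154, 98, 15 and 203 (MV against CON, MV_PEEP against CON, MV_PEEP against MV, both ventilated groups against CON), to 2, 2, 1 and 5 with limma at a pseudocount of 1, to 2, 2 and 5 with 0.1 (MV_PEEP against MV stayed at 0), and to 3 without a filter for both ventilated groups. With single libraries left out these counts ranged from 0 to 0 for MV against CON and from 0 to 1 for the other 3 comparisons. The number of the 10 genes at an unadjusted p under 0.05 rose from 0 to 1 with library totals, limma (both pseudocounts) and DESeq2 for MV_PEEP against CON and for both ventilated groups against CON, which was PINK1 each time, and to 1 with DESeq2 for MV_PEEP against MV, which was PPARGC1A. It ranged from 0 to 0 for MV against CON, 0 to 2 for MV_PEEP against CON and against MV, and 0 to 1 for both ventilated groups, when single libraries were left out. The highest counts came without MV_PEEP replicate 1: PINK1 (-2.28) and MFN1 (-0.91) against CON, and PPARGC1A (-2.27) and MFN1 (-1.07) against MV. The share of all genes at that level in these fits is not given here, so the counts have no background to be read against.

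Replicate numbers did not pair the libraries: deviations of libraries with the same number correlated between -0.28 and 0.36, and only 2 of 9 libraries resembled their own number most. The replicate block left 0 genes called in all 4 comparisons, turned PPARGC1A in both ventilated groups against CON to -0.049, and brought 1 of the 10 genes, PPARGC1A (-1.54), to an unadjusted p under 0.05 for MV_PEEP against MV. Correlations of PPARGC1A with TFAM (-0.10) and FIS1 (-0.035), of MFN1 with DNM1L (-0.16), of MFN2 with FIS1 (-0.60) and PINK1 (-0.10), and of OPA1 with FIS1 (-0.33) turned negative on log2(FPKM + 1). Of 126 values of the 14 differences within a library that do not involve PINK1, 27 turned sign with 1 library left out. The fit of only the libraries compared is the same as the fit of all 9 for both ventilated groups against CON and was not run there. The 3 libraries per group limit what can be called: the intervals of TFAM and PINK1 for both ventilated groups against CON span folds of 0.494 to 1.58 and 0.187 to 1.06.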
